A study of Mus musculus with 12 samples.

Results

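The genes described here encode 3 secreted peptides, Sct (secretin), Gal (galanin) and Edn3 (endothelin 3), together with the endothelin receptors Ednra and Ednrb. The peptide genes were chosen by their signal on these arrays, which stood out in satellite cells, the stem cells that lie along muscle fibres, and the receptors were added for their link to Edn3. Members were all probe sets that the platform annotation assigned to exactly 1 of these genes, 6 of the 22690 probe sets on the array. Sct and Gal each had 1 probe set, Edn3 and Ednrb 2 each, and no probe set was listed for Ednra, which was not analysed here. Since the measured levels chose Sct, Gal and Edn3, their differences between cell groups are given as a description, without p-values.

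Secretin is the founding member of a family of gut and brain peptides that signal through G protein-coupled receptors and raise cyclic AMP, and its best known site of synthesis is the S cell of the duodenum. Galanin is a neuropeptide of central and peripheral neurons, also made by injured sensory neurons, and acts on 3 receptors, encoded by Galr1, Galr2 and Galr3. Endothelin 3 belongs to the endothelins, short peptides cut from a larger precursor by endothelin-converting enzymes. It acts mainly through the endothelin B receptor and is required for the development of neural crest derivatives such as enteric neurons and melanocytes, while endothelin 1 binds the A receptor of smooth muscle with high affinity and constricts vessels.

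RNA came from hind limb muscle of C57BL/6J mice aged 8 to 12 weeks and was hybridised to Affymetrix Mouse 430A arrays, with 4 arrays in each of 3 groups. Quiescent satellite cells bound the antibody SM/C-2.6 and were taken at once after sorting, with more than 97% positive for Pax7. Activated cells were SM/C-2.6-positive cells kept for 4 days in DMEM with 20% fetal calf serum and 2.5 ng/ml basic fibroblast growth factor, with more than 99% positive for MyoD. Non-myogenic cells, negative for SM/C-2.6 and for the leukocyte antigen CD45, were also taken at once and held under 1% myogenic cells. No genetic modification is named in the labels. The labels leave unstated whether the replicate arrays are of different animals, pools or cultures. The p-values below therefore refer to the spread among these arrays alone, part of which may be technical. Activation cannot be told apart from culture and time since sorting, because the activated cells alone were cultured, and in sorted bulk samples fewer cells of a type cannot be told apart from less RNA per cell.

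The 12 arrays were labelled with 2 kits, the small-sample kit (quiescent 1 and 2, activated 1 and 2, non-myogenic 1) and the two-cycle kit (the other 7). The mean deposited signal, with 2% trimmed at each tail, was 323 to 502 on small-sample arrays and 160 to 236 on two-cycle arrays, so arrays were scaled to a common trimmed mean of 235 and all signals below are on that scale. Pax7, the transcription factor of satellite cells, read 640 to 1899 on quiescent, 61.8 to 125 on activated and 1.24 to 6.66 on non-myogenic arrays. Myod1, the transcription factor of myoblasts, read 813 to 1580, 3305 to 5829 and 32.6 to 40.9. The CD45 gene Ptprc did not exceed 45.7 on any array. The summed signal of 9 leukocyte markers, Ptprc among them, was nevertheless 1479 on quiescent array 1, against 180 to 499 on the other quiescent arrays, 108 to 133 on activated and 253 to 508 on non-myogenic arrays. Of that sum 882 came from S100a9, a neutrophil gene that read 8.19 to 82.1 on the other quiescent arrays.

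The 250 bases before the start site of each peptide gene are given because the 3 genes had 3 different patterns over the groups. For Sct the start site used by the RefSeq promoter table lies inside the outermost bound of the gene, so 41 bases of its window are within the annotated gene, against 0 for Gal and Edn3. The sequences are from RefSeq on build GRCm38.p6, 5′ to 3′ along the gene, with the E-box CAGCTG, a site type bound by MyoD and other basic helix-loop-helix factors, in capitals.
Sct, chr7:141279134-141279383, minus strand: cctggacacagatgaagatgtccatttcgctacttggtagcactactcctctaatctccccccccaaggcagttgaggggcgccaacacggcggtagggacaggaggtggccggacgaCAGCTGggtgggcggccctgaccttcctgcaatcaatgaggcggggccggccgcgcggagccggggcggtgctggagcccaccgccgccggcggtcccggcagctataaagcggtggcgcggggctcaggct
Gal, chr19:3414545-3414794, minus strand: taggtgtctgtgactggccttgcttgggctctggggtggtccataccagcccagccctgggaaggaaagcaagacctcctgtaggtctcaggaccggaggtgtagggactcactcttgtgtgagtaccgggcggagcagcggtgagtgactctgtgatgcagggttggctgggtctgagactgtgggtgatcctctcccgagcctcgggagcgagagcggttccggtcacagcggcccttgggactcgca
Edn3, chr2:174760369-174760618, plus strand: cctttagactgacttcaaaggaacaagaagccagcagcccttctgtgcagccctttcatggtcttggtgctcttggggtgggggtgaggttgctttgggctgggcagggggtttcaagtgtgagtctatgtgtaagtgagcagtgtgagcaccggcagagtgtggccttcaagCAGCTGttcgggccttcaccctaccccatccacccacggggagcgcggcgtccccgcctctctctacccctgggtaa
Sct and Edn3 each held 1 CAGCTG, which is its own reverse complement, beginning 132 and 77 bases before the start site of the table, and Gal held none. This hexamer occurred in 13% of all 32851 promoter windows of the same length. The core TGACG of the cyclic AMP response element, searched on both strands and not overlapping the hexamer, was in 17.8% of all windows and in none of these 3. The window of Sct had a GC content of 68%, that of Gal 62.4% and that of Edn3 59.2%.

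Secretin mRNA was high in the cultured, activated cells and near the bottom of the signal range in the other groups. Sct (probe set 1418805_at) read 456, 913, 2232 and 2546 on activated arrays 1 to 4. Quiescent arrays read 8.86, 13.8, 9.23 and 8.68, and non-myogenic arrays 17.1, 4.01, 9.55 and 3.69. The lowest activated array thus lay above every array of the other groups, whose ranges overlapped each other. Ranked among all probe sets of its own array, Sct stood between the 83.2 and 97.1 percentile in activated cells, and between 13.1 and 22.8 in the others. No detection calls were used here, so a background limit cannot be given for these low readings. Mean signals were 1537 ± 1010.0 (SD, n = 4) in activated, 10.1 ± 2.43 in quiescent and 8.59 ± 6.28 in non-myogenic cells.

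On the scale of log2(signal + 14.7), which understates the change of genes with low signal, Sct was higher in activated than in quiescent cells by 5.67 ± 0.40 (SE). Against non-myogenic cells the log2 difference was 5.91 ± 0.41, and between quiescent and non-myogenic cells it was 0.24 ± 0.41. These comparisons share arrays. Groups that did not overlap were common, at 51.3% of the 12072 probe sets tested for activated against quiescent cells, 38% for quiescent against non-myogenic and 58.4% for activated against non-myogenic cells, and nothing is read from these shares for the chosen genes.

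The Sct level of the activated arrays also went with the labelling kit. Both two-cycle arrays lay above both small-sample arrays in scaled signal, by 1.86 ± 0.28 on the log2 scale (adjusted p 0.00228, limma with Benjamini-Hochberg adjustment, where 19.9% of probe sets were called). Ranks within each array, which need no scaling, kept this order, at the 83.2 and 91.1 percentile on small-sample and 96.6 and 97.1 on two-cycle arrays. The deposited Sct signals overlapped, at 885 and 1948 on the small-sample and 1686 and 2329 on the two-cycle arrays. Unscaled, the difference was 0.59 ± 0.32 (adjusted p 0.0923), where the median over all probe sets was -1.28. In quiescent cells, where Sct was low, the same difference was -0.13 ± 0.28 (adjusted p 0.773), and in non-myogenic cells, with a lone small-sample array, -0.65 ± 0.33 (limma, adjusted p 0.231, where 6.44% were called). The log2 difference between activated and quiescent cells was 4.67 on small-sample and 6.66 on two-cycle arrays. These differed by 1.99 ± 0.40 (limma, adjusted p 0.0233, where 4.66% of probe sets were called). That call was lost, with adjusted p from 0.0519 to 0.0883, without quiescent array 2, 3 or 4 or activated array 3 or 4. The adjusted p was 0.161 on the unscaled values, 0.0516 with the smaller pseudocount and 0.051 with no signal filter. Nothing in the labels ties arrays to cultures, so kit and culture cannot be told apart.

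**Figure D1:**
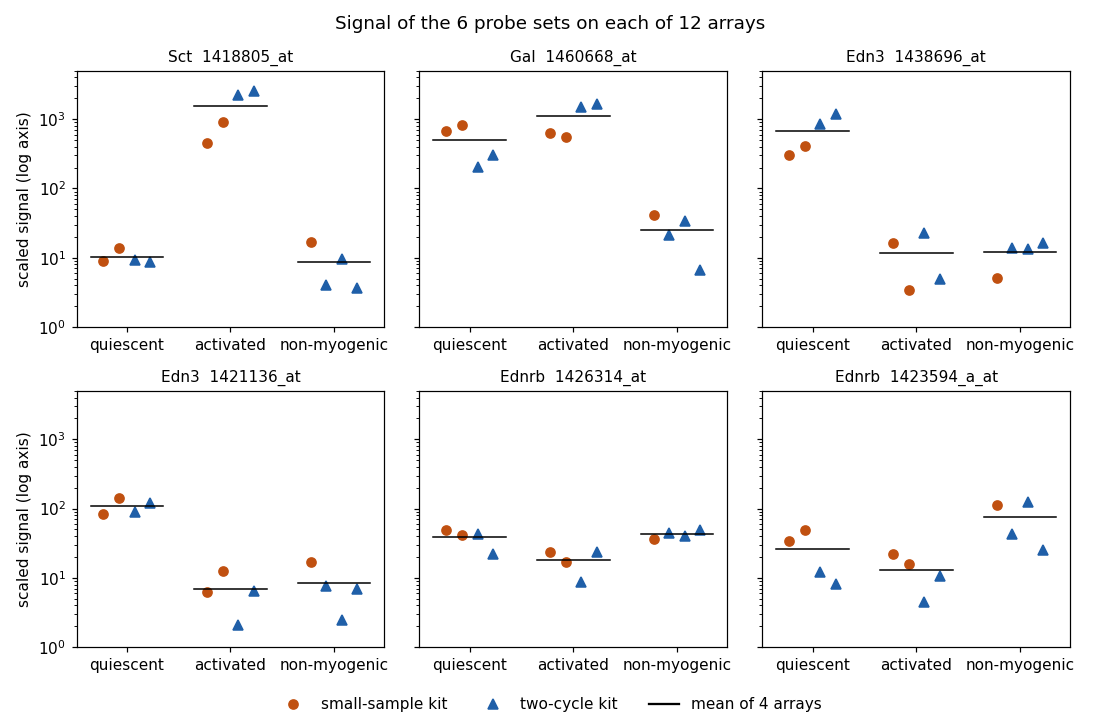
Scaled signal (log axis) of the 6 probe sets on each of the 12 arrays, by cell group; circles are small-sample arrays, triangles two-cycle arrays and bars the mean of 4 arrays. Sct was high on the 4 activated arrays (456 to 2546), Gal on activated and quiescent arrays (203 to 1670) and Edn3 at 1438696_at on quiescent arrays (301 to 1169). Edn3 at 1421136_at read 82.8 to 140.4 on quiescent arrays, and neither Ednrb probe set passed 124 on any array.

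Myog, the transcription factor of differentiating myocytes, is given beside this split because it also separated the activated arrays by kit. It read 4532 and 1775 on activated arrays 1 and 2, and 444 and 369 on arrays 3 and 4. The split was not particular to Myog, as 19.9% of probe sets were called for the kit within activated cells. On the same arrays Pax7 read 109 and 125 against 65.0 and 61.8, and Myod1 3841 and 3305 against 5541 and 5829. In scaled signal and in ranks within each array, the 2 activated arrays with more Myog were those with less Sct and less Gal. The deposited Sct and Gal signals of the activated arrays overlapped between the kits. Whether differentiation had a part in the Sct or Gal levels was not tested.

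Galanin mRNA was high in satellite cells of both states and low in non-myogenic cells. Gal (1460668_at) read 686, 823, 203 and 303 on quiescent arrays 1 to 4, and 633, 561, 1524 and 1670 on activated arrays. Non-myogenic arrays read 40.9, 21.1, 33.5 and 6.59. The lowest satellite array therefore lay above the highest non-myogenic array, while quiescent and activated arrays overlapped. Mean signals were 504 ± 298 (SD, n = 4) in quiescent, 1097 ± 582 in activated and 25.5 ± 15 in non-myogenic cells. The log2 difference was 3.51 ± 0.48 (SE) for quiescent against non-myogenic and 4.65 ± 0.48 for activated against non-myogenic cells, and within the kits these differences were at least 2.98 and 3.46.

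Whether Gal was higher in activated than in quiescent cells differed between the arrays of the 2 kits. As for Sct, kit cannot be told apart from culture or sort. With the two-cycle kit the activated arrays read 1524 and 1670 against 203 and 303, a log2 difference of 2.61. With the small-sample kit they read 633 and 561 against 686 and 823, a log2 difference of -0.33. Both kits pooled gave 1.14 ± 0.47. The 2 within-kit differences differed by 2.94 ± 0.46 (limma, adjusted p 0.00889, against 4.66% of probe sets called), and the call was kept in all 16 alternatives tried, with adjusted p from 0.000595 to 0.0461. In scaled signal the two-cycle arrays were higher by 1.40 ± 0.32 among activated cells (adjusted p 0.0135) and lower among quiescent cells (-1.54 ± 0.32, adjusted p 0.00911, where 22.4% of probe sets were called). The first of these calls was lost without any 1 of the 4 activated arrays (adjusted p 0.0509 to 0.0814) and with the smaller pseudocount (0.0617), and the second without quiescent array 2 or 3 (0.0544 and 0.0757). Unscaled, the deposited Gal signals of the activated arrays, 1229 and 1197 against 1152 and 1528, overlapped (0.13 ± 0.33, adjusted p 0.71), while those of the quiescent arrays, 1101 and 1130.4 against 138 and 245, differed more (-2.50 ± 0.33, adjusted p 3.12e-05). A single kit term over all groups was accordingly small, at -0.25 ± 0.40 (adjusted p 0.654, where 33.5% were called). In ranks within each array, which need no scaling, Gal stood at the 89.0 and 90.7 percentile on small-sample and at 71.7 and 77.9 on two-cycle arrays of quiescent cells, and at 87.2 and 85.6 against 94.7 and 95.3 in activated cells.

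**Figure D2:**
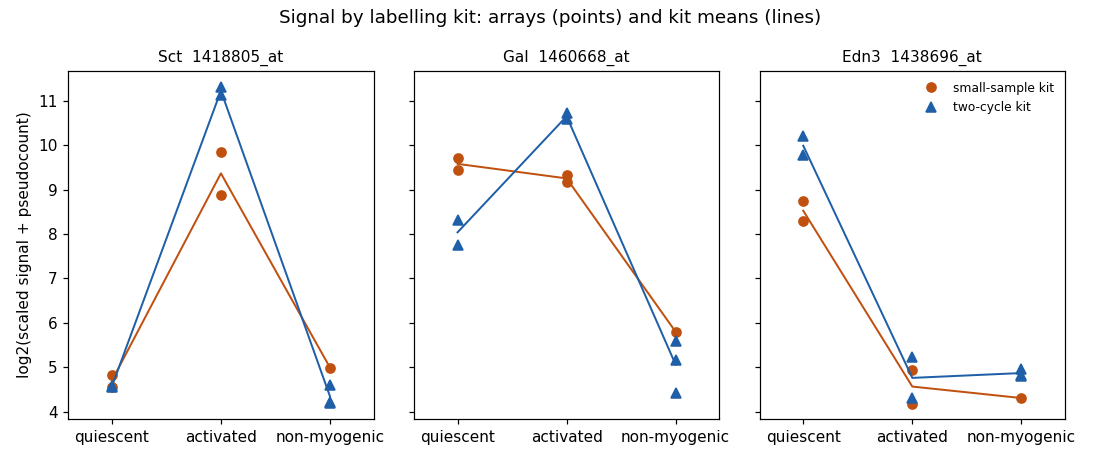
Log2(scaled signal + 14.7) of Sct, Gal and Edn3 (1438696_at) by cell group, with points for arrays and lines joining the means of each labelling kit. The lines of Gal cross between quiescent and activated cells, with log2 differences of -0.33 (small-sample) and 2.61 (two-cycle), whereas those of Sct and Edn3 run the same way in both kits.

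Endothelin 3 mRNA was higher in quiescent satellite cells than in the other groups at both of its probe sets, and high there at 1 of them, 1438696_at. Edn3 at 1438696_at read 301, 415, 859 and 1169 on quiescent arrays 1 to 4. Activated arrays read 16.1, 3.42, 22.6 and 4.92, and non-myogenic arrays 5.05, 13.8, 13.3 and 16.5. All 4 quiescent arrays lay above all 8 others, which overlapped each other. The log2 difference was -4.60 ± 0.28 (SE) for activated against quiescent, 4.72 ± 0.29 for quiescent against non-myogenic and 0.12 ± 0.29 for activated against non-myogenic cells. The quiescent arrays stood between the 77.4 and 93.6 percentile of their arrays, and the others between 10.8 and 41.2.

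The second Edn3 probe set, 1421136_at, gave the same order of groups at lower readings. It read 82.8, 140.4, 89.8 and 122 on quiescent arrays, 6.18, 12.6, 2.12 and 6.45 on activated arrays, and 17.1, 7.51, 2.48 and 6.79 on non-myogenic arrays. On the quiescent arrays it stood in the middle of the range, between the 52.5 and 62.3 percentile. Its mean over all arrays was under the signal filter of 47.0, so it was left out of the main test, and its log2 differences in the fit with no filter were -2.51 ± 0.20 for activated against quiescent and 2.34 ± 0.20 for quiescent against non-myogenic cells. The probe sets disagreed on the kit. Among quiescent cells 1438696_at was higher with the two-cycle kit by 1.46 ± 0.33 (adjusted p 0.0114, but 0.0673 without quiescent array 4, 0.0767 with the smaller pseudocount and 0.211 unscaled), while 1421136_at differed by -0.04 ± 0.27 (adjusted p 0.94 with no filter). Over all groups the kit term of 1438696_at was 0.76 ± 0.24 (limma, adjusted p 0.0276, where 33.5% were called). This was no longer called, with adjusted p from 0.0538 to 0.0725, without any 1 of the 4 quiescent arrays, activated array 2 or 3 or non-myogenic array 1, and was 0.693 unscaled.

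Markers of other cells moved between these groups as well. All 8 satellite and myoblast markers of a list were higher in quiescent than in non-myogenic cells (limma, where 25.9% of genes were), with a summed signal of 11830 to 16350 on quiescent, 7436 to 9114 on activated and 962 to 1154 on non-myogenic arrays. All 10 endothelial markers were lower in quiescent than in non-myogenic cells (26.3% of genes were) and lower in activated than in quiescent cells (37.9%), with sums of 1888 to 2675, 230 to 245 and 10518 to 12582. All 7 fibroblast markers tested were lower in both comparisons, with sums of 8730 to 13331, 192 to 713 and 32867 to 58680. Of 9 mural markers 7 were lower and 1 higher in activated than in quiescent cells, with sums of 8401 to 10657, 2344 to 5769 and 11476 to 23704. Of 9 leukocyte markers 3 were tested, and these were lower in activated than in quiescent cells as well. S100a9 was among them, and passed the filter only through the 882 of quiescent array 1. With any 1 array left out, the activated minus quiescent log2 differences stayed at 5.37 to 6.12 for Sct, 0.79 to 1.49 for Gal and -4.85 to -4.32 for Edn3 (1438696_at). Leaving out 1 array cannot address these other cells, since endothelial, fibroblast and mural sums were higher on every quiescent than on every activated array. The part of these other cells in the Sct, Gal and Edn3 differences was not tested.

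The endothelin B receptor lay below the middle of the signal range in satellite cells, between the 16.8 and 43.8 percentile over its 2 probe sets. Non-myogenic arrays stood between 37.7 and 61.5 at 1423594_a_at and between 35.7 and 47.8 at 1426314_at. Ednrb at 1423594_a_at read 34.3, 48.5, 12.2 and 8.19 on quiescent arrays, 21.7, 15.8, 4.50 and 10.6 on activated arrays, and 111, 43.1, 124 and 24.9 on non-myogenic arrays. The non-myogenic arrays were all above the activated arrays but overlapped the quiescent ones. At 1426314_at the readings were 48.6, 41.5, 43.1 and 22.5, then 23.4, 17.1, 8.60 and 23.9, then 36.1, 43.7, 40.5 and 48.8. Here too every non-myogenic array was above every activated array, and quiescent arrays overlapped both.

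Neither Ednrb probe set passed the signal filter, and both were tested in the fit over all 20380 probe sets. Ednrb was lower in activated than in non-myogenic cells at both, with log2 differences of -1.77 ± 0.31 (limma, adjusted p 0.000333) and -0.85 ± 0.20 (0.00313), in a comparison where 48.8% of probe sets were called. Quantile normalization reduced the log2 difference at 1426314_at to -0.48. Quiescent cells were lower than non-myogenic cells at 1423594_a_at (-1.32 ± 0.31, adjusted p 0.00543, against 35.2% called) and differed by -0.15 ± 0.20 at 1426314_at (adjusted p 0.612). Activated cells were lower than quiescent cells at 1426314_at (-0.70 ± 0.20, adjusted p 0.0097, against 51% called) and differed by -0.46 ± 0.31 at 1423594_a_at (adjusted p 0.237). The former difference was -0.25 after quantile normalization and -0.34 with the larger pseudocount. The latter was also lower with the two-cycle kit (-0.88 ± 0.26, adjusted p 0.0263, against 25.8% called), and 1426314_at was not called (-0.15 ± 0.17, 0.549). Of 12 markers of Schwann cells and melanocytes, cell types known for Ednrb, 9 had a probe set and 5 were tested, of which 1, Mitf, was lower in quiescent than in non-myogenic cells (26.3% of all genes were) and 4 were lower in activated than in quiescent cells (37.9% of all genes). Their summed signal was 750 to 1854 on quiescent, 183 to 260 on activated and 1425 to 1977 on non-myogenic arrays. Among quiescent arrays this sum was split by kit, with 1854 and 1826 on small-sample against 750 and 853 on two-cycle arrays. Ednrb at 1423594_a_at was split the same way there. The part of Schwann, melanocyte or endothelial cells in the Ednrb signal was not tested.

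Of the other 4 tested genes of the endothelin system, taken from a list, Edn1, Ece1 and Mme had their highest mean in non-myogenic cells and Ece2 its highest in activated cells. Edn1, the endothelin of vessel walls, had a mean signal of 87.0 ± 35 (SD, n = 4) in quiescent, 38.5 ± 28.6 in activated and 198 ± 52.1 in non-myogenic cells, and Edn2 did not exceed 33.7 on any array. Ece1, the main endothelin-converting enzyme, read 468 ± 210.3, 78.8 ± 15.4 and 1212 ± 483 and was lower in activated than in quiescent cells (log2 difference -2.27 ± 0.25, adjusted p 2.82e-06). Ece2, a converting enzyme that works at acidic pH, ran the other way, with 127 ± 31.6, 336 ± 30.5 and 76.5 ± 16.4 and a rise of 1.33 ± 0.18 in activated cells (adjusted p 1.64e-05). Mme, which encodes the endothelin-degrading peptidase neprilysin, read 37.7 ± 16.7, 27.3 ± 17.9 and 339 ± 13.8 and was lower in quiescent than in non-myogenic cells (log2 difference -2.83 ± 0.28, adjusted p 2.59e-06). It passed the filter through non-myogenic cells alone. Between quiescent and non-myogenic cells Ece2 was higher by 0.59 ± 0.18 (adjusted p 0.0146, and 0.383 unscaled).

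Galanin receptors gave low readings in satellite cells, and the calcitonin receptor was high in the quiescent cells. Galr1 did not exceed 45.1 on any array at the probe set used. Galr2 read 59.2 to 78.1 on non-myogenic arrays and at most 11.2 on satellite arrays, with a mean under the filter, and Galr3 and the secretin receptor gene Sctr were not analysed here. Of the 15 secretin family receptors 12 had a probe set and 3 passed the filter, Calcr, Calcrl and Pth1r. Calcr, the calcitonin receptor of satellite cells, read 768 ± 152 (SD, n = 4) in quiescent, 9.18 ± 7.29 in activated and 9.22 ± 4.09 in non-myogenic cells, so it was high in the same group as Edn3. It passed the filter through that group alone. Calcrl, a receptor for adrenomedullin and calcitonin gene-related peptide, was lower in activated than in quiescent cells (log2 difference -2.84 ± 0.21, adjusted p 6.92e-08). Pth1r, the parathyroid hormone receptor, was lower as well (-1.13 ± 0.20, adjusted p 0.000182), and both were lower in quiescent than in non-myogenic cells (-0.60 ± 0.21, adjusted p 0.0326, and -2.61 ± 0.20, adjusted p 2.44e-07). Pth1r read 20.8 ± 8.51 in quiescent, 1.14 ± 0.34 in activated and 214 ± 56.4 in non-myogenic cells, and passed the filter through the last group. The Calcrl call against non-myogenic cells was lost without quiescent array 2 or 4 or non-myogenic array 1, 2 or 3 (adjusted p 0.0533 to 0.181), and within either kit alone.

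Of the 6 secretin family peptide genes Sct alone passed the filter. The mean signals of Vip, Adcyap1, Gcg, Gip and Ghrh were under the filter of 47.0 in every group. Of 34 other peptide hormone genes 29 had a probe set and 7 passed the filter. In activated against quiescent cells 1 was higher and 5 lower, where 31.6% of genes were higher and 37.9% lower, and the median log2 difference was -0.82 against -0.11 over all genes. Nppc, which encodes C-type natriuretic peptide, read 444 ± 147 (SD, n = 4) in quiescent, 10.8 ± 6.87 in activated and 31.3 ± 8.79 in non-myogenic cells (log2 difference -4.14 ± 0.20, adjusted p 1.81e-09, for activated against quiescent). It was thus high in the same group as Edn3, and passed the filter through that group alone. Apln, the gene of apelin, was the 1 that rose in activated cells, from 107 ± 19.0 to 250 ± 54.5 (1.11 ± 0.19, adjusted p 0.000132). Penk, the proenkephalin gene, and Adm, the adrenomedullin gene, were instead highest in non-myogenic cells, at 763 ± 121 and 758 ± 174, against 75.7 ± 28.1 and 50.2 ± 14.5 in quiescent cells (log2 differences -3.15 ± 0.25, adjusted p 3.02e-07, and -3.59 ± 0.22, adjusted p 2.94e-08).

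**Figure D3:**
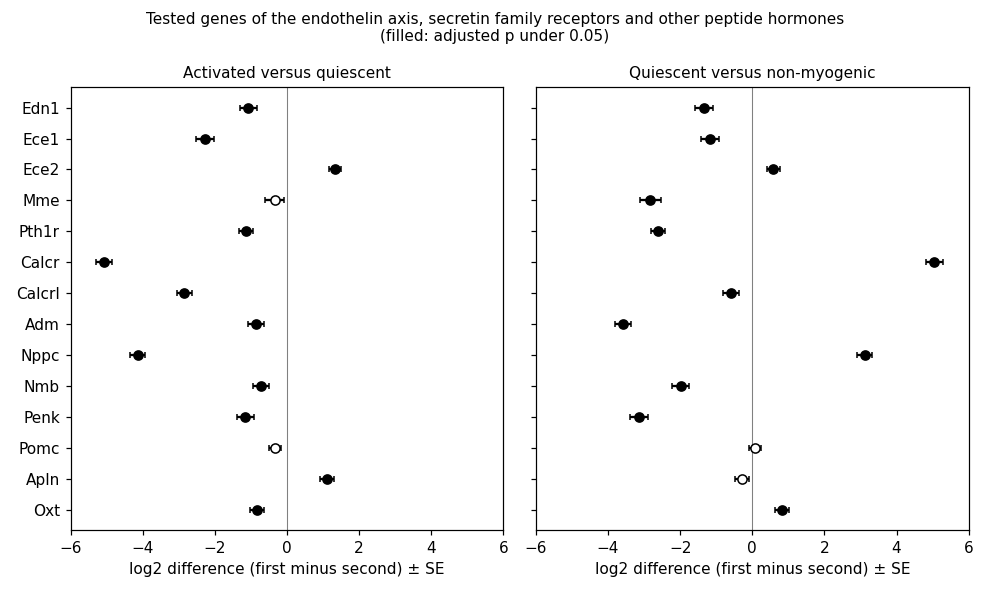
Log2 differences with standard errors for the tested genes of the endothelin system (without Edn3), the secretin family receptors and the other peptide hormones, for activated minus quiescent (left) and quiescent minus non-myogenic cells (right), with filled points at an adjusted p under 0.05. Calcr and Nppc lie far to the left in the first panel (-5.07 and -4.14) and far to the right in the second (5.05 and 3.12).

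Of 18 genes that turn such precursors into active peptides 10 were tested, of which 6 were lower, 0 higher and 4 not called in quiescent against non-myogenic cells (limma, against 26.3% and 25.9% of genes, median log2 difference -2.12 against 0.03 over all genes), and 9 were lower in activated than in non-myogenic cells (38.1%, with 33.8% higher). Cpz, Scg3 and Qpct, among those tested, had means under the filter in both satellite groups. They passed it through non-myogenic cells alone (199, 266 and 525), so these counts and the median rest in part on the filter. Pcsk6, a proprotein convertase, read 85.4 ± 17.6 (SD, n = 4) in quiescent, 68.6 ± 9.70 in activated and 2561 ± 225 in non-myogenic cells. Furin, the convertase of the constitutive secretory route, read 152 ± 51.5, 155 ± 31.6 and 134 ± 32.8 and was not called in any of the 3 comparisons (adjusted p 0.647 to 0.843). Pam, the enzyme that amidates the end of peptides including secretin and galanin, fell from 207 ± 77.5 in quiescent to 91.8 ± 46.0 in activated cells (log2 difference -1.10 ± 0.18, adjusted p 0.000134). Qpct, which cyclises the first residue of some peptides, was the 1 processing gene called higher in activated than in quiescent cells (0.95 ± 0.18, adjusted p 0.00042). Its means there, 24.8 ± 8.89 against 5.76 ± 4.91, were both under the filter, which it passed through its 525 ± 47.6 in non-myogenic cells. Of the other processing genes 5 were lower and 4 not called (31.6% and 37.9% of all genes were higher and lower).

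Among 16 tested genes of G proteins, adenylyl cyclases, phospholipases and cyclic AMP effectors, the partners of these receptors, 10 were lower and 2 higher in activated than in quiescent cells (37.9% and 31.6% of genes). Adcy2, an adenylyl cyclase, read 1311 ± 31.9 (SD, n = 4) in quiescent, 120 ± 24.9 in activated and 272 ± 61.7 in non-myogenic cells (log2 difference -3.32 ± 0.14, adjusted p 6.18e-10, for activated against quiescent, and 2.15 ± 0.15, adjusted p 7.27e-08, for quiescent against non-myogenic). Crem, a transcription factor gene of cyclic AMP signalling, read 409 ± 79.0, 47.1 ± 14.8 and 190 ± 21.5, and Prkar1a, a regulatory subunit of protein kinase A, and Creb1 were the 2 higher genes (0.48 ± 0.15, adjusted p 0.00973, and 0.57 ± 0.16, adjusted p 0.00572). Both were not called within the small-sample kit alone (adjusted p 0.268 and 0.206).

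Each member was last set beside the genes with the closest pattern, measured as the root mean square difference between log2 profiles centred on their means over the 12 arrays, among 7959 other genes. For Sct, whose own SD over the arrays was 2.89, the closest were Ube2c (0.76 on the log2 scale), a ubiquitin-conjugating enzyme of mitotic exit, the mitotic kinesin gene Kif2c (0.83), Hes6 (0.85), Rrm2 (0.85), a subunit of ribonucleotide reductase, and the thymidine kinase gene Tk1 (0.87). Over the 4 activated arrays Sct spanned 2.44 on the log2 scale, and these 5 genes spanned 0.30 to 0.72. For Gal (SD 2.22) they were Rapsn (0.74), which encodes the protein that clusters acetylcholine receptors, 2010204K13Rik (0.83), the AP-1 gene Fosl1 (0.86), the serine synthesis gene Psat1 (0.86) and Dtl (0.87). For Edn3 (SD 2.31) they were Blnk (0.51), an adaptor gene of B cell receptor signalling, Calcr (0.69), Tenm4 (0.71), Nap1l5 (0.73) and Otoa (0.75). Blnk read a mean of 448 in quiescent, 14.6 in activated and 18.8 in non-myogenic cells. Ednrb at 1426314_at hardly varied (SD 0.46), and its closest profiles among 7960 genes were 1700094D03Rik (0.16), C1galt1, Srgap2, Ppp2r5b and Aldh3b1 (0.20 to 0.21).

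**Figure D4:**
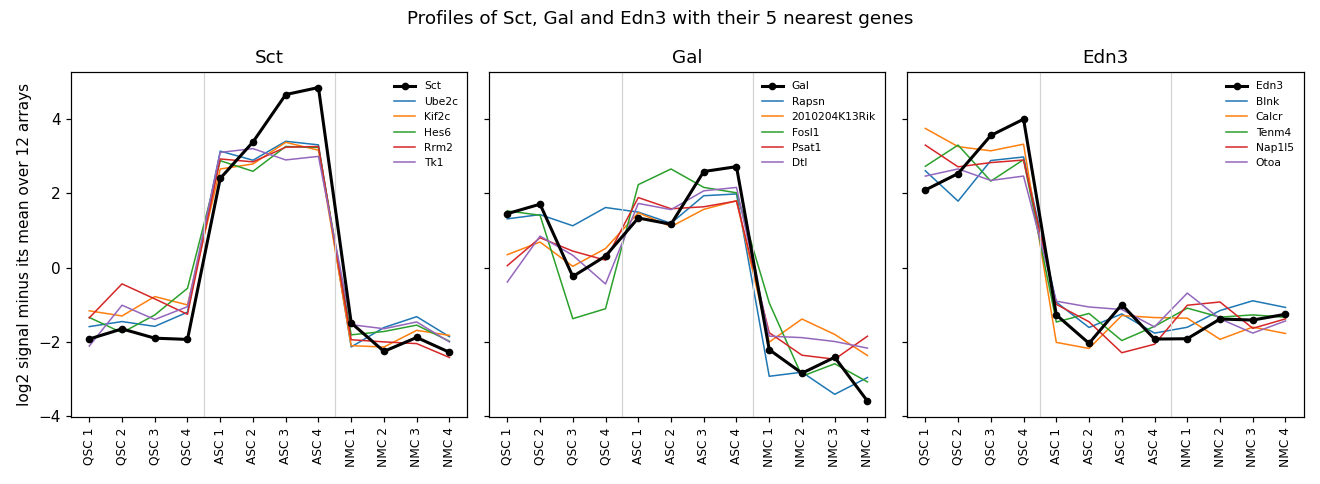
Log2 signal minus its mean over the 12 arrays for Sct, Gal and Edn3 (black) and the 5 genes with the smallest root mean square difference from each, by array (QSC quiescent, ASC activated, NMC non-myogenic). Sct rises with its neighbours on the activated arrays but spreads more widely there, and Edn3 is high on the 4 quiescent arrays. Gal lies higher on every satellite array than on the non-myogenic arrays, but at -0.24 and 0.31 on quiescent arrays 3 and 4 it is near its own mean.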

How the data were processed

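Gene expression was measured on 12 Affymetrix Mouse 430A arrays. The deposited values are probe set intensities on a linear scale, made by the authors with MAS5 according to the submitters' processing notes, with version and settings not given in the sources used here. Each array was scaled to a trimmed mean (2% per tail) of 235.14 and values were taken as log2(signal + 14.696). Of 22690 probe sets 20380 had 1 gene in the platform annotation, with symbols updated through Entrez ID, and 12072 with a mean of at least 47.028 were tested with limma 3.58.1 in R 4.3.3 (terms for group and kit, or for each group and kit, Benjamini-Hochberg adjustment, called under 0.05). Of the 6 member probe sets 3 passed this filter. Lists were counted with the probe set of highest mean log2 signal per gene, 7960 genes. The members, lists and tests were chosen with earlier results of these data known. Named are all members, all tested genes of the endothelin, galanin and secretin family lists, and of other lists up to 4 called genes with the smallest adjusted p per comparison and called genes against the trend of their list; Furin, and the genes below the filter, were named after their values were seen, as was Myog. The scripts were tested on simulated data. Figures used Python 3.11.15 and matplotlib 3.10.9. Alternatives were the kit term left out, each kit alone, no scaling, quantile normalization, other pseudocounts and filters, 1 probe set per gene, a replicate block and each array left out.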

Additional observations from a re-analysis of the deposited data

Results flagged for a closer look

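The activated minus quiescent difference was not the same with the 2 labelling kits for 2 of the 3 peptide genes. On the log2 scale the two-cycle difference exceeded the small-sample difference by 1.99 for Sct and by 2.94 for Gal, in a limma fit with a term for each group and kit. For Sct the call depended on single arrays and on the scaling, pseudocount and filter, as given above. For Edn3 at 1438696_at the corresponding value was -1.27 ± 0.46 (adjusted p 0.13).

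Of 18 combinations of probe set and group checked for an array that stands apart, 1 did: quiescent array 2 read 13.8 for Sct against 8.68 to 9.23 on the others, a gap of 0.881 of the group's range on the log2 scale, above the 95% critical value of Dixon's test. About 1 in 20 groups passes it by chance, and the array's Sct was at the 19.3 percentile of its probe sets.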

How the results depend on the processing

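Over 23 alternatives for each group comparison, the log2 differences of Sct in activated cells and of Edn3 in quiescent cells kept their sign, with Sct at 4.25 to 6.66 and Edn3 (1438696_at) at -5.49 to -3.24 for activated against quiescent; the extremes came from the pseudocounts and the single kits. Gal reversed in this comparison with the small-sample arrays alone (-0.33). The Calcr difference between activated and non-myogenic cells was near 0 in the main fit (-0.02) and had no stable sign. It was -0.19 to 0.19 with 1 array left out and 0.45 with the two-cycle arrays alone. With the small-sample arrays alone, fewer probe sets were called for quiescent (1969 against 6202) and for activated against non-myogenic cells (5260 against 8450), a setting with 1 non-myogenic array. Unscaled values called 12208 of 12962 probe sets that passed the filter for the kit, against 4044 of 12072, with a median shift of -1.05. They also moved the share of higher calls from 45% to 58.2% for activated against quiescent and from 53.4% to 23.3% for quiescent against non-myogenic cells, and the medians of all probe sets by 0.25 and -0.35; quantile normalization moved the first by 0.15 and the share for the kit from 35.5% to 54.3%. The interaction of kit and state called 563 probe sets, 335 after quantile normalization and 92 to 1038 with 1 array left out; the cause was not tested. Same-numbered arrays of different groups correlated at -0.387 to 0.401 in their deviations from group means, with 9 of 12 pairs above 0.1. For quiescent and activated arrays all 4 pairs were, at 0.172 to 0.313, but arrays of the same kit with different numbers correlated at 0.215 to 0.359, so the number was not taken as a pairing beyond the kit. With the replicate number as a block in place of the kit 7544, 5564 and 7804 probe sets were called, against 8248, 6202 and 8450, and of 69 values of pathway genes 1, for Gna12, which is not described above, lost its call. Of 1759 alternative values of tested differences 1672 kept their direction and call, and of 408 without a test 398 kept their sign. Alternatives for the kit within each state were chosen after seeing the data. No detection calls were used, so signals near the low end have no stated limit.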

Other observations

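A pair of peptide genes below the signal filter is described here, picked after their values were seen. Npy, the gene of neuropeptide Y, read 45.0 to 144 on quiescent arrays, 7.94 to 33.9 on activated arrays and 12.8 to 40.3 on non-myogenic arrays. Its quiescent arrays did not overlap the others, which overlapped each other. Nts, the neurotensin gene, read 33.0 to 43.4 on quiescent, 1.08 to 11.0 on activated and 44.4 to 81.3 on non-myogenic arrays, and was thus lowest in the cultured cells. Of tested probe sets 51.3% did not overlap for activated against quiescent, 38% for quiescent against non-myogenic and 58.4% for activated against non-myogenic cells. No such share was taken below the filter, so nothing is read from these separations.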
